A study of Mus musculus with 5 samples.

Results

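The platelet-derived growth factor (PDGF) genes of the mouse are 4 ligands, Pdgfa, Pdgfb, Pdgfc and Pdgfd, and 2 receptors, Pdgfra and Pdgfrb. They were taken by symbol, and all 6 were found among the 55357 genes of the matrices. Each matrix is 1 droplet library (10x Genomics Chromium 3′ chemistry) of the tibialis anterior, a fast hind-limb muscle, of female C57BL/6 mice aged 26 months, and whether each came from 1 mouse is not stated. Mice with a 31-item frailty index of at least 0.18 form the frail group, labelled as cases (2 libraries), and those under it the control group (3 libraries), and the labels name no genetic change or agent in either. The series describes the tissue preparation both as enzymatic digestion to whole cells and as lysis to sorted nuclei, and the barcodes are called cells here. On GRCm38 (GENCODE vM21) all 6 are protein-coding genes. Pdgfa (ENSMUSG00000025856) lies on the minus strand of chromosome 5 from 138976014 to 138997370, Pdgfb (ENSMUSG00000000489) on the minus strand of chromosome 15 from 79995874 to 80014977, and Pdgfc (ENSMUSG00000028019) on the plus strand of chromosome 3 from 81036416 to 81214040. Pdgfd (ENSMUSG00000032006) lies on the plus strand of chromosome 9 from 6168584 to 6378850, Pdgfra (ENSMUSG00000029231) on the plus strand of chromosome 5 from 75152292 to 75198215, and Pdgfrb (ENSMUSG00000024620) on the plus strand of chromosome 18 from 61045150 to 61085061.

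PDGFs are secreted dimers that bring their receptor tyrosine kinases together at the cell surface. PDGF-A and PDGF-B are cut inside the cell by furin-like convertases, whereas PDGF-C and PDGF-D leave it with a CUB domain that extracellular proteases such as tPA and uPA remove. PDGFR-alpha binds the A, B and C chains and marks the fibro-adipogenic progenitors of muscle. PDGFR-beta binds the B and D chains, and PDGF-B from endothelium is known to hold PDGFR-beta-bearing pericytes on capillaries.

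Cells were assigned to gates by a few genes that are not members, and UMIs (unique molecular identifiers, 1 per captured transcript) were summed per library within each gate. Levels are CPM, the UMIs of a gene scaled to a fixed total of UMIs in the same sum, and are listed for frail 1 and 2, then control 1, 2 and 3. Dcn marks the stromal gate, which Smoc2 and Pi16 split into cells with 1 of them, with both or with neither. The 2 gates with 1 marker alone, Dcn Smoc2 and Dcn Pi16, are the stromal kinds compared here. Cells with both numbered 702, 1076, 928, 889 and 1901 in the same order of libraries. They outnumbered the Dcn Pi16 cells (482, 418, 869, 697 and 790) in every library. Cdh5 marks endothelium, which Gpihbp1 (capillary), Gja5 (arterial) and Vwf (venous) split further. Rgs5 marks pericytes, Myh11 smooth muscle, Sox10 glia and Pax7 satellite cells, with macrophages (Csf1r and C1qa) and myofibre fragments (Acta1) for comparison. Of 56 marker entries listed for these gates, 48 were highest in their own gate. Ackr1, Nr2f2 and Gja4 were among the exceptions, so the venous (2 of 4) and arterial (3 of 4) gates had the smallest shares. For the 5 general stromal markers either of the 2 Dcn gates counted as their own, and for the 5 endothelial markers any Cdh5 gate. Those entries show the lineage rather than the gate, and no marker was listed for Dcn Smoc2 cells alone. A marker can be higher in another gate because it is not specific, so these counts do not measure purity.

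The libraries kept 8650 to 12088 cells, 66301294 to 88089633 UMIs in all and a median of 5353 to 7005 UMIs per cell. Any 2 libraries shared 17 to 35 barcodes. Frail 1 lost 17.2% of its barcodes to the limit on mitochondrial UMIs, against 7.49% to 11.2% in the others, and control 3 alone held 578 ungated cells with the keratin gene Krt14. Myofibre fragments numbered 2, 52, 210, 574 and 126, so myofibre levels rest on 4 libraries and on fragments. Cells that passed the gates of more than 1 lineage (944 to 1201 per library) were left out of every gate. They held 13.8% to 20.1% of the UMIs of Pdgfa and 17.8% to 33.1% of those of Pdgfb.

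**Figure D1:**
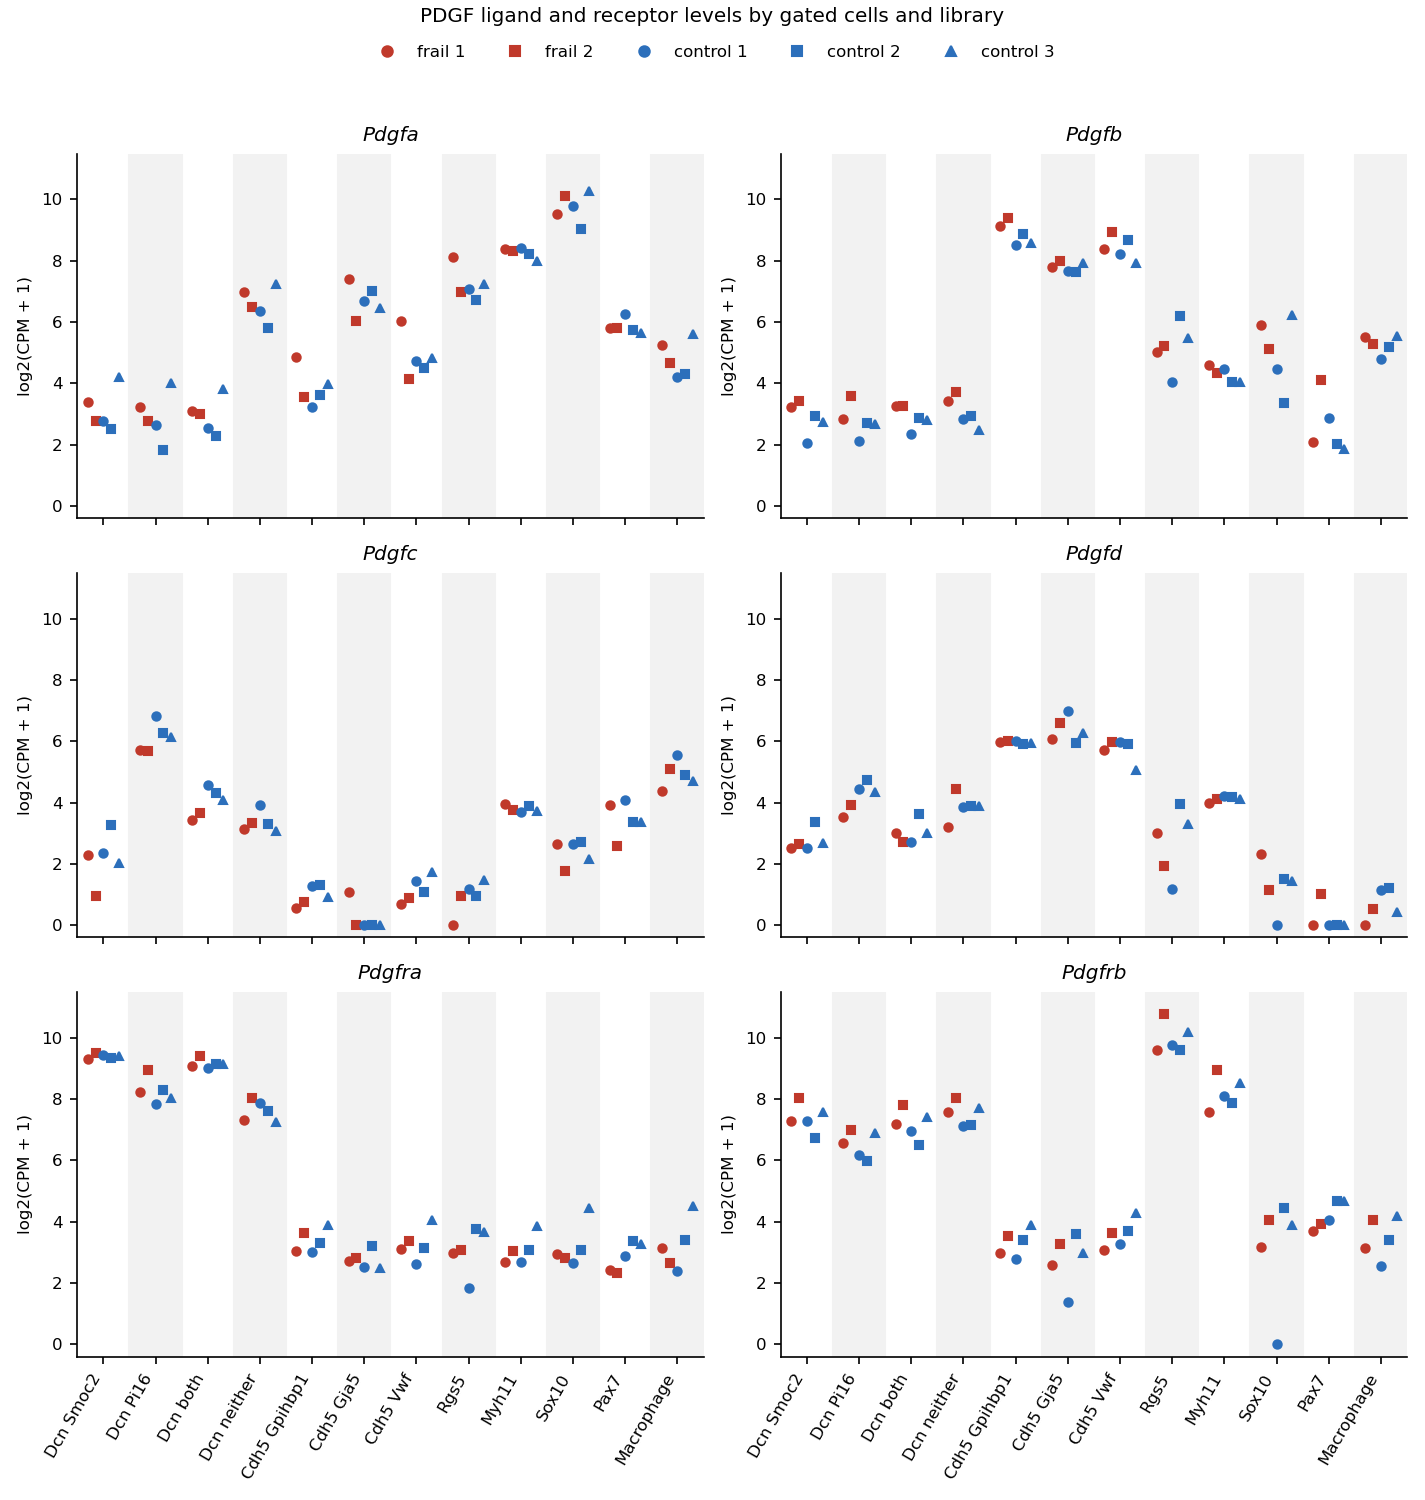
Level of each member as log2(CPM + 1) in 12 gates, 1 panel per gene, with 1 point per library (red, frail; blue, control). Pdgfb is high in the Cdh5 gates, Pdgfra in the Dcn gates and Pdgfrb in the Rgs5, Myh11 and Dcn gates, in every library.

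Pdgfa, the ligand of PDGFR-alpha, was highest in Sox10 cells, at 741, 1114, 877, 524 and 1238 CPM in 156, 159, 38, 88 and 107 cells. Every library was higher there than in Myh11 cells, the next gate, where the levels were 334, 322, 345, 297 and 255 CPM. Rgs5 cells followed at 280, 125, 133, 105 and 152 CPM, with frail 1 far above the others and inside the range of Myh11 cells. Arterial Cdh5 Gja5 cells held 170, 64.1, 101, 127 and 87.6 CPM and overlapped the Rgs5 cells. Pax7 cells held 49.0 to 76.0 CPM. The stromal Dcn Smoc2 and Dcn Pi16 cells lay at 2.53 to 17.5 CPM and had the lowest means among the gates. Thinned to 2000 UMIs per cell, 49.4%, 56.4%, 50%, 48.8% and 68.0% of Sox10 cells had a Pdgfa UMI, against 0.612% to 2.79% of Dcn Smoc2 cells. Unthinned, at median depths of 4482 to 5145 and 6770 to 7551 UMIs, the ranges were 63.2% to 79.4% and 2.80% to 8.78%.

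Pdgfa was also high among Dcn cells with neither Smoc2 nor Pi16. This gate was split after its values were seen by at least 2 UMIs of Tnmd or Fmod, listed as markers of tenocytes. Scx, also listed, was not used. Among the gates compared for markers, which leave out this one, Fmod had its highest mean in Dcn Smoc2 cells (351 CPM). Tnmd had its highest in Myh11 cells (78.3 CPM), so the split does not by itself identify tenocytes. Cells with either marker held 169, 131, 129, 77.5 and 181 CPM of Pdgfa and 94.2% to 99.1% of the Pdgfa UMIs of the gate. Cells with neither held 5.81 to 11.8 CPM, the level of the other stromal cells. The receptors split as well. Pdgfra was at 29.9 to 46.6 CPM in the marked cells and at 482, 737, 510, 539 and 667 CPM in the rest. Pdgfrb was at 215, 309, 191, 168 and 224 CPM in the marked cells and at 62.3 to 171 CPM in the rest, higher in the marked cells of every library. The cells with tenocyte markers numbered 478, 330, 150, 365 and 682. In control 3 the Krt14 cells held 49.6% of the ungated Pdgfa UMIs at 100.3 CPM.

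**Figure D2:**
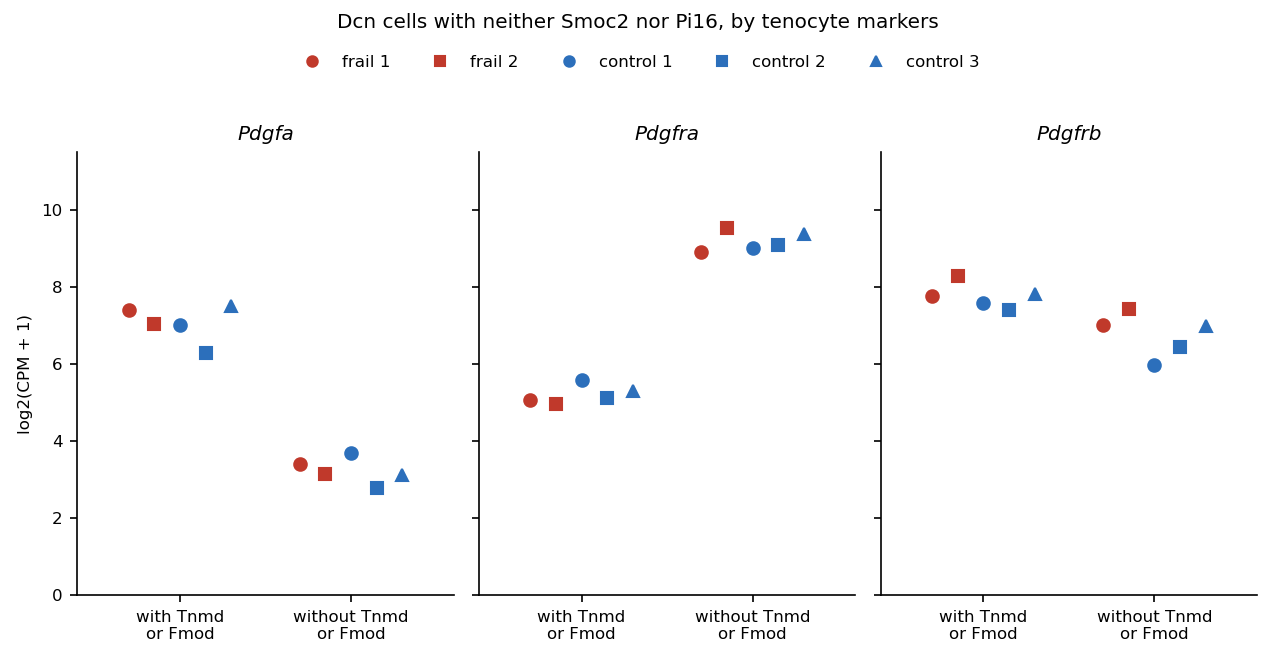
Level as log2(CPM + 1) of Pdgfa, Pdgfra and Pdgfrb in Dcn cells with neither Smoc2 nor Pi16, divided by at least 2 UMIs of Tnmd or Fmod; 1 point per library (red, frail; blue, control). Pdgfa and Pdgfrb are higher with a tenocyte marker and Pdgfra is lower, in every library.

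Pdgfb, which can bind both receptors, was an endothelial transcript. Capillary Cdh5 Gpihbp1 cells held 557, 670, 362, 467 and 384 CPM, venous Cdh5 Vwf cells 332, 485, 300, 405 and 242 CPM, and arterial Cdh5 Gja5 cells 221, 251, 205, 197 and 244 CPM. Every library was highest in capillary cells, and the arterial level did not overlap with that of any other lineage. Rgs5, Sox10 and macrophage cells lay between 9.36 and 74.6 CPM and overlapped each other. Stromal Dcn Smoc2 and Dcn Pi16 cells lay between 3.12 and 11 CPM. Of capillary cells thinned to 2000 UMIs, 63.8%, 72.0%, 48.6%, 57.8% and 53.5% had a Pdgfb UMI, against 0.367% to 2.11% of Dcn Smoc2 cells. Unthinned, the shares were 69.3% to 86.4% at median depths of 3554 to 4065 UMIs, and 2.26% to 6.20%. Cdh5 cells of all kinds held 65.9%, 74.9%, 64.0%, 58.4% and 50.5% of all Pdgfb UMIs.

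Pdgfc, a CUB-domain ligand of PDGFR-alpha, was highest in Dcn Pi16 cells, at 51.4, 50.7, 112, 76.7 and 68.9 CPM. Both frail libraries lay under all 3 controls. Macrophages were next at 19.6, 33.5, 46.3, 28.6 and 25.2 CPM, without overlap with the Dcn Pi16 cells, and Myh11 cells followed at 11.9 to 14.5 CPM. Dcn Smoc2 cells held 0.951 to 8.72 CPM, and Cdh5 Gpihbp1, Cdh5 Vwf and Rgs5 cells at most 2.34 CPM. Dcn Pi16 cells held 32.6% to 57.1% of all Pdgfc UMIs. Thinned to 2000 UMIs, 7.39% to 19.3% of Dcn Pi16 cells had a Pdgfc UMI, against 0.173% to 0.503% of Cdh5 Gpihbp1 cells. Unthinned, the shares were 30.7% to 56.9% and 0.236% to 0.763%.

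Pdgfd, the CUB-domain ligand of PDGFR-beta, was highest in endothelium. Cdh5 Gpihbp1 cells held 61.8, 62.8, 63.2, 59.6 and 60.7 CPM, with little spread between libraries. Arterial Cdh5 Gja5 cells held 66.4, 95.3, 125, 60.9 and 76.0 CPM, and the venous cells 51.5, 62.5, 61.8, 58.5 and 32.7 CPM. Arterial cells were higher than capillary cells, and capillary higher than venous, in 5 of 5 libraries, although the ranges of neighbouring gates overlapped. Some of these gaps were very small, as for all 3 gates in control 2 and for capillary against venous cells in frail 2. The arterial gate held 147, 119, 67, 37 and 44 cells, and its Pdgfd level in control 2 rests on 22 UMIs. Dcn Pi16 cells (10.6, 14.2, 20.6, 25.8 and 19.5 CPM) and Myh11 cells (15 to 17.5 CPM) overlapped each other and lay below all endothelial gates. Pdgfd was nearly absent from macrophages (0 to 1.30 CPM), and Pax7 cells held 1 UMI over the 5 libraries.

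**Figure D3:**
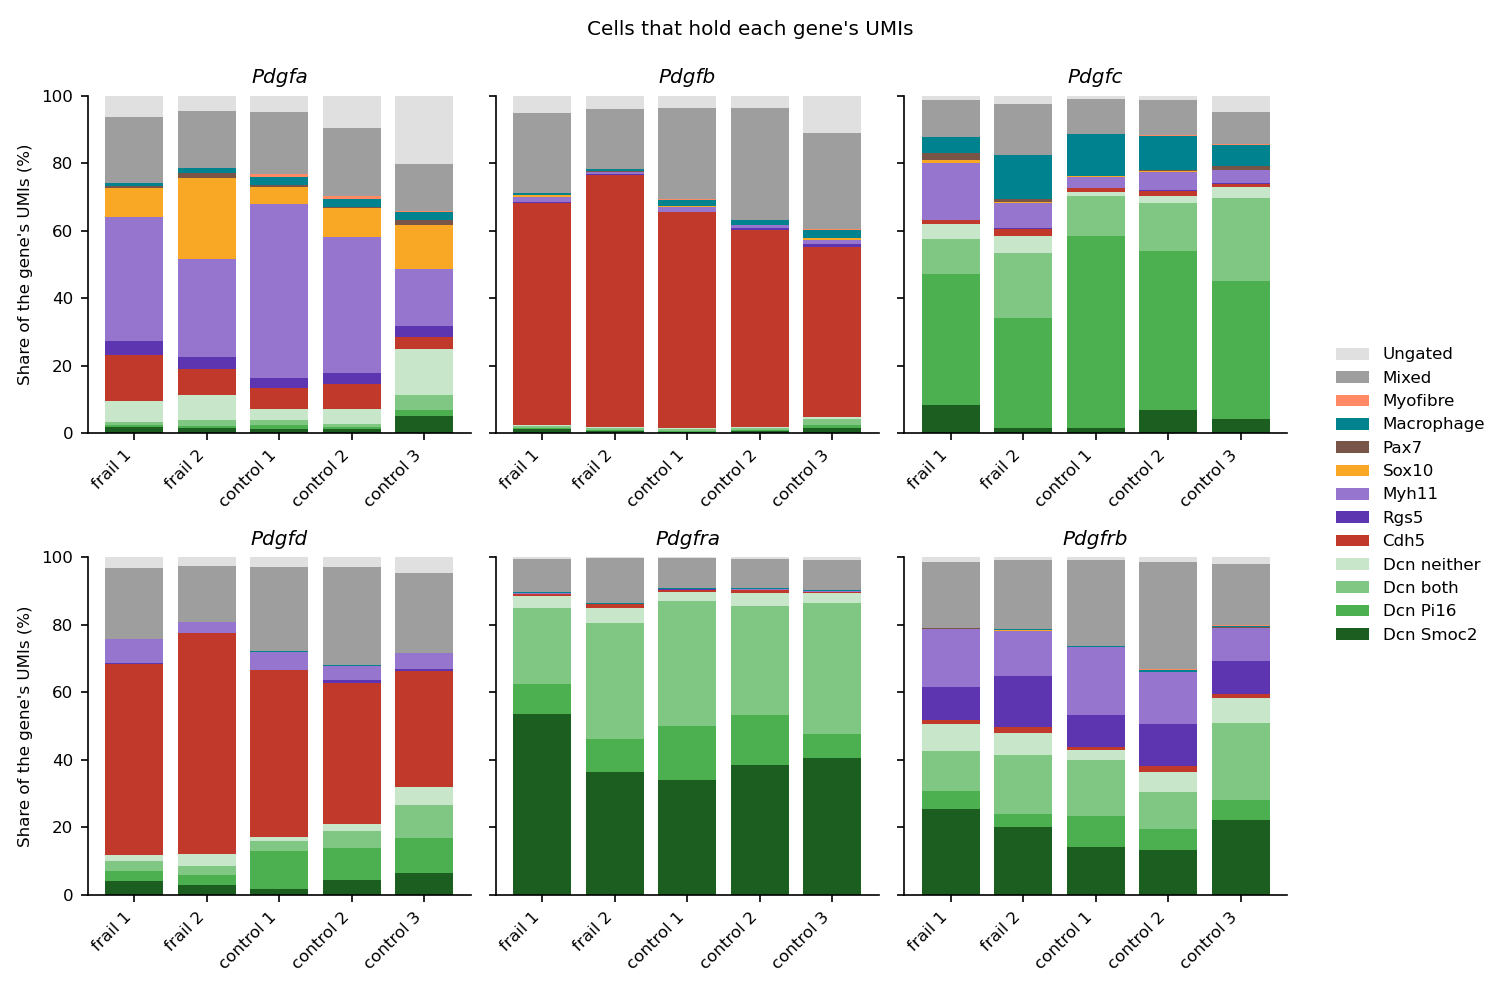
Share of the UMIs of each gene that each gate holds, in percent, with 1 bar per library. Cdh5 cells hold the largest single share of Pdgfb and Pdgfd, Myh11 cells that of Pdgfa in 4 of the 5 libraries, and Dcn cells most of Pdgfra; grey marks mixed and ungated cells.

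Pdgfra was largely stromal. Dcn Smoc2 cells held 639, 718, 690, 653 and 682 CPM, with little spread between libraries. Dcn Pi16 cells held 299, 494, 226, 312 and 264 CPM, lower in every library and without overlap. Every gate of another lineage with at least 20 cells lay between 2.58 and 22.0 CPM with overlapping ranges. Thinned to 2000 UMIs, 67.2%, 72.0%, 72.7%, 67.0% and 69.5% of Dcn Smoc2 cells had a Pdgfra UMI, against 1.41% to 3.74% of Cdh5 Gpihbp1 cells. Unthinned, these shares were 88.4% to 92.6% and 3.36% to 6.32%.

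Pdgfrb was highest in Rgs5 cells, at 777, 1747, 861, 783 and 1175 CPM. Frail 2 was highest and control 3 second. Myh11 cells followed at 191, 489, 271, 232 and 365 CPM, without overlap with the Rgs5 cells. Dcn Smoc2 cells held 156, 261, 154, 106 and 190 CPM, and Dcn Pi16 cells 94.9, 127, 71.8, 62.1 and 118 CPM. Frail 2 was highest and control 3 second in all 4 of these gates, and the ranges of Myh11 and Dcn Smoc2 cells overlapped, as did those of both Dcn gates. Pax7 cells held 12 to 24.7 CPM and the other lineages, in libraries with at least 20 cells, at most 20.6 CPM. Thinned, 74.5%, 92.6%, 77.8%, 70.7% and 83.5% of Rgs5 cells had a Pdgfrb UMI, against 1.17% to 2.85% of Cdh5 Gpihbp1 cells. Unthinned, at median depths of 2784 to 3350 and 3554 to 4065 UMIs, these were 79.3% to 95.2% and 2.76% to 5.90%.

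Stromal cells carried both receptors. Thinned to 2000 UMIs, 17.6%, 25.8%, 18.9%, 12.5% and 21.0% of Dcn Smoc2 cells had UMIs of both Pdgfra and Pdgfrb. The same share of Dcn Pi16 cells was 7.63%, 14.0%, 4.88%, 5.76% and 8.46%, lower in every library. Of Rgs5 cells, in which Pdgfra lay at 2.58 to 12.4 CPM, 0% to 2.83% had both. Without thinning the shares were 42.4% to 70.6% in Dcn Smoc2 cells and 34.7% to 56.9% in Dcn Pi16 cells, so a lack of one receptor's UMI at the thinned depth does not show that the cell lacks the transcript. In Dcn Smoc2 cells, frail 2 had the highest share of both and control 2 the lowest.

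The comparisons between gates pair the sums of the same library, with the library as a block in edgeR's quasi-likelihood test and Benjamini-Hochberg adjustment over all genes tested. Between the 2 stromal kinds, both CUB-domain ligands were higher in Dcn Pi16 cells and both receptors were higher in Dcn Smoc2 cells. Pdgfc was 19.2-fold higher in Dcn Pi16 cells (log2 4.26 ± 0.31 SE, edgeR adjusted p = 0.000183) and Pdgfd 3.35-fold higher (log2 1.74 ± 0.14, adjusted p = 5.34e-07). Pdgfra differed by log2 -1.01 ± 0.15 (edgeR adjusted p = 0.00126) and Pdgfrb by log2 -0.74 ± 0.07 (adjusted p = 5.32e-06). All 4 had the same direction in 5 of 5 libraries. Dcn cells with both markers enter neither sum and held 22.6% to 38.9% of all Pdgfra UMIs. Their Pdgfra (513 to 672 CPM) and Pdgfc (9.84 to 22.8 CPM) lay between the levels of the 2 kinds in every library. Pdgfa (log2 -0.11 ± 0.14, edgeR adjusted p = 0.551) and Pdgfb (0.01 ± 0.15, adjusted p = 0.973), both low in these cells, did not pass. Of all 13301 genes tested, 49.4% passed, so 4 of 6 members is close to the background share. These gates differ by the genes that define them and also in depth, with medians of 6770 to 7551 UMIs in Dcn Smoc2 and 8877 to 10459 in Dcn Pi16 cells.

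The promoters of the 3 members that separate the stromal kinds most in size are shown because Pdgfc and Pdgfd differ in the same direction, higher in Dcn Pi16 than in Dcn Smoc2 cells, and Pdgfra in the other. Sequences run from 250 bases before to 50 after the RefSeq start, 5′ to 3′, on GRCm38.p6. RefSeq promoters were matched for 4 of the 6 members. Capitals mark matches on either strand to any of 4 short motifs. The GC box was searched as GGGCGG, which 35.7% of 32851 mouse promoters of this length hold. The letters CCAAT are held by 37.4% of these promoters, the TATA box searched as TATAAA by 13.6%, and the AP-1 site searched as TGANTCA by 7.81%.
Pdgfc, chr3:81036166-81036465, plus strand: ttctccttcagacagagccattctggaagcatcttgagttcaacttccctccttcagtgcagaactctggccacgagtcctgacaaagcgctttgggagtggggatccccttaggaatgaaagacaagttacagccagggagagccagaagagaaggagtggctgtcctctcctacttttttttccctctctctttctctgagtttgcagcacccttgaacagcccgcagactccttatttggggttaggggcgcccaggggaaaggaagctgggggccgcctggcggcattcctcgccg
Pdgfd, chr9:6168236-6168535, plus strand: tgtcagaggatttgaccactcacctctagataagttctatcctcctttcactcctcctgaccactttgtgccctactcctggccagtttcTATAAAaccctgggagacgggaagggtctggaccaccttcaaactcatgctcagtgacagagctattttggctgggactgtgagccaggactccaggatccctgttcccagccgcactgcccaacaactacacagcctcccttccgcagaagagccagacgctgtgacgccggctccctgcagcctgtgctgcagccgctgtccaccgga
Pdgfra, chr5:75152001-75152300, plus strand: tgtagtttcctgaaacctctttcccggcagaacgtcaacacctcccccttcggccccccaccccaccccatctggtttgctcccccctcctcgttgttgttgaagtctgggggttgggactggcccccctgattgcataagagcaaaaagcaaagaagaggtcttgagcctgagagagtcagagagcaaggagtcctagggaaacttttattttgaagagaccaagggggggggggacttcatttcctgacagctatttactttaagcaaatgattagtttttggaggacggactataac
The Pdgfd window holds 1 match to the letters TATAAA. It lies nearer to the 5′ end of the window than to the RefSeq start, and whether it acts as a TATA box was not tested. None of the 4 motifs was found in the windows of Pdgfc and Pdgfra, which says only that these letters are not there. The window of Pdgfd ends before the gene start that GENCODE gives. GC content was 55.0%, 56.7% and 51.0%. The windows of Pdgfa hold 1 and 2 GC boxes at its 2 RefSeq starts and are richer in GC, at 67.0% and 73.3%. Both windows (ending at 138994531 and 138995194) lie inside the gene that GENCODE gives, whose 5′ end on the minus strand is at 138997370.

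Within the endothelium Pdgfa and Pdgfb differed in opposite directions between capillary and arterial cells. Pdgfa was 7.78-fold higher in Cdh5 Gja5 than in Cdh5 Gpihbp1 cells (log2 2.96 ± 0.16 SE, edgeR adjusted p = 6.92e-12), and Pdgfb was lower (log2 -1.06 ± 0.11, adjusted p = 9.37e-08). Pdgfd was higher by log2 0.51 ± 0.13 (edgeR adjusted p = 0.00426). With mixed cells kept the Pdgfa difference was log2 2.07 (adjusted p = 1.19e-09). The Pdgfd call was lost without control 1 (log2 0.34, adjusted p = 0.0565) and with gate thresholds doubled (log2 0.44, adjusted p = 0.0648). Pdgfra and Pdgfrb, at 1.58 to 13.9 CPM in these cells, did not pass, and Pdgfc was too low to be tested. Of 11260 genes 31.8% passed, against 3 of the 5 members tested. These gates also differ in depth, with medians of 8047 to 10760 UMIs in arterial and 3554 to 4065 in capillary cells. The part of depth in these differences was not tested.

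In the venous gate Pdgfa was again higher and Pdgfb lower than in capillary cells. Pdgfa was 2.13-fold higher in Cdh5 Vwf than in Cdh5 Gpihbp1 cells (log2 1.09 ± 0.13 SE, edgeR adjusted p = 1.39e-05), and Pdgfb was lower (log2 -0.44 ± 0.07, adjusted p = 0.000156). Pdgfd gave log2 -0.16 ± 0.09 (edgeR adjusted p = 0.271) and did not pass. Neither did Pdgfra (log2 -0.08) or Pdgfrb (log2 0.30). Of 11776 genes 18.4% passed, against 2 of the 5 members tested. Median depths here were 5884 to 8597 UMIs in venous and 3554 to 4065 in capillary cells, and their part was not tested. The arterial and venous differences share the capillary sums and were not tested against each other. In frail 1 the Pdgfa level stood above every other library in each endothelial gate (28.4 CPM in Cdh5 Gpihbp1 cells against 8.38 to 14.8, and 65.1 in Cdh5 Vwf cells against 16.8 to 27.5).

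Between the mural cells, 3 ligands were higher in Myh11 than in Rgs5 cells and Pdgfrb was lower. Pdgfa was 2.34-fold higher (log2 1.23 ± 0.17 SE, edgeR adjusted p = 9.55e-05), Pdgfc 14.5-fold (log2 3.86 ± 0.41, adjusted p = 9.15e-07) and Pdgfd 2.68-fold (log2 1.42 ± 0.33, adjusted p = 0.00264). The Pdgfc ratio rests on 5 UMIs over all Rgs5 cells. Pdgfrb differed by log2 -1.59 ± 0.09 (edgeR adjusted p = 1.06e-09), lower in Myh11 cells of 5 of 5 libraries. Pdgfb gave log2 -0.86 ± 0.34 (edgeR adjusted p = 0.0692) and Pdgfra 0.11 ± 0.28 (adjusted p = 0.762). Of 10692 genes 50.5% passed, against 4 of 6 members. The mural gates also differ in depth, with medians of 8226 to 10618 UMIs in Myh11 and 2784 to 3350 in Rgs5 cells. What depth adds to these differences was not tested. With mixed cells kept, the Pdgfd difference turned to log2 -0.50 (adjusted p = 0.000693), that of Pdgfrb shrank to log2 -0.47 (adjusted p = 0.00299) and that of Pdgfc to log2 2.25 (adjusted p = 2.82e-06). Between 463 and 858 mixed cells per library passed both the endothelial and a mural gate, and endothelium is where Pdgfd was highest. Their part in these shifts was not tested.

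**Figure D4:**
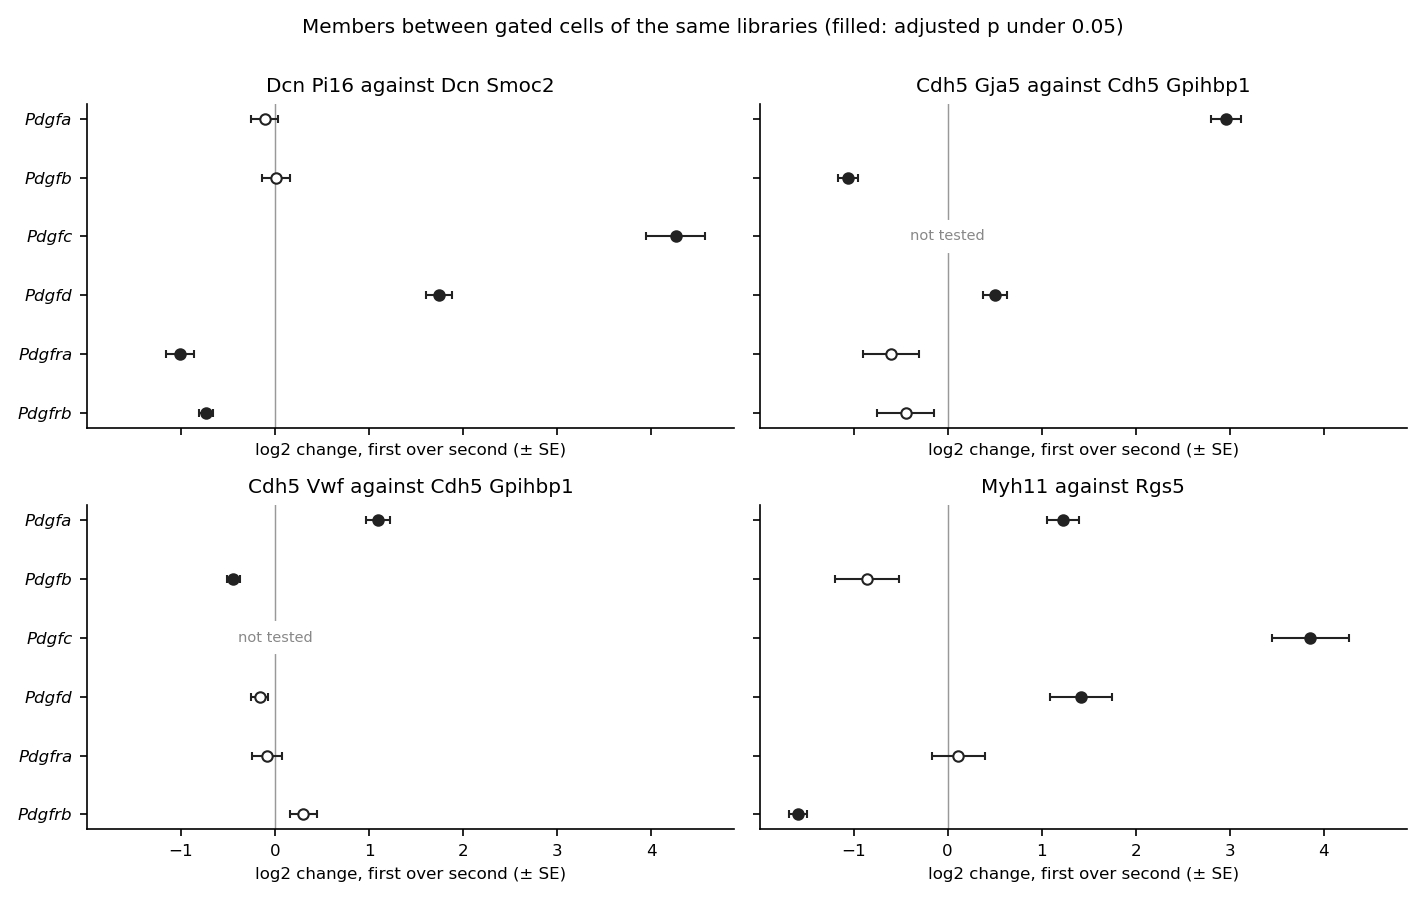
Log2 change (± SE, edgeR) of each member between 2 gates of the same 5 libraries in 4 comparisons; filled points passed an adjusted p of 0.05. Pdgfc and Pdgfd lie to the right in Dcn Pi16 and Myh11 cells, and Pdgfa and Pdgfb lie on opposite sides in the Cdh5 panels.

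The genes around the receptors were followed in 3 lists: 12 that process or bind PDGFs, 18 receptor adaptors and effectors, and 13 negative regulators. In Dcn Pi16 against Dcn Smoc2 cells, 4 of 11 measured processing genes were higher and 5 lower in edgeR (median log2 -0.31, against -0.0022 over all genes). Plat, which encodes the tPA that activates PDGF-C, was higher in Dcn Pi16 cells (log2 1.75), as was the convertase Pcsk6 (2.16). Plau, which encodes uPA, was lower (log2 -1.46), and so was the receptor-like Pdgfrl (-3.40). Of 18 adaptors and effectors 6 were higher and 9 lower (median log2 -0.21), among them the kinase Fyn at 1.69 and the transcription factor Stat3 at -0.76. Of 13 negative regulators 4 were higher and 5 lower (median log2 -0.08). The feedback inhibitors Spry1 (-2.91), Spry4 (-2.66) and Dusp6 (-2.36) were all lower, and the receptor phosphatase Ptprj was higher (2.79).

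In arterial against capillary cells, 4 of 10 measured processing genes were higher and 4 lower, with Pcsk5, a convertase that can process PDGF-A, at log2 4.79 and Plat at 2.37. Of 17 adaptors 4 were higher and 0 lower, and of 13 negative regulators 4 were higher and 3 lower, with Ptprj at 3.84 and Spry1 at -2.39. In venous against capillary cells the counts were 3 and 1 of 10, 2 and 0 of 17, and 3 and 3 of 13. In Myh11 against Rgs5 cells, 1 of 9 processing genes was higher and 5 lower, led by the co-receptor Nrp1 at log2 -2.68. Of 18 adaptors 1 was higher and 7 lower, and of 13 negative regulators 3 were higher and 6 lower. Spry1, Spry2, Spry4 and Dusp6 were lower in Myh11 cells, at log2 -2.19 to -1.66, as was Pdgfrb. These counts are to be read against the shares of all genes given above for each comparison.

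Frail and control libraries were compared in all cells and in 7 gates with edgeR's quasi-likelihood test, and no member passed in any of the 8. With 2 against 3 libraries, an exact permutation test of 1 value cannot go below p = 0.1. In all cells 0 of 19989 genes (0%) passed, and 1119 had an unadjusted p under 0.05 (319 passed in DESeq2). In these cells 2 of 6 members did not overlap between the groups, against 20% of all genes. The genes that passed were 0.00698% of those tested in Dcn Smoc2 cells, 0% in Dcn Pi16 cells and 0% in Cdh5 cells (701 and 601 of the latter 2 had an unadjusted p under 0.05, and 69 and 92 passed in DESeq2). They were 0.0631% in Rgs5, 0.166% in Myh11, 0.0253% in Sox10 and 0.0829% in Pax7 cells.

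Pdgfc in all cells was at 9.05 and 8.58 CPM in the frail libraries and 27.4, 15.7 and 13.3 CPM in the controls. The groups did not overlap, and the difference did not pass (log2 -1.12 ± 0.34 SE, edgeR adjusted p = 0.711). Without control 1 it was log2 -0.73. Dcn Pi16 cells, the main source of Pdgfc, made up 6.87% and 5.52% of the UMIs of the frail libraries and 13.9%, 9.67% and 7.87% of those of the controls. Within Dcn Pi16 cells the difference was log2 -0.77 ± 0.23 (adjusted p = 0.592). In a sum over all cells, fewer cells of a type and less RNA per cell cannot be told apart. In Myh11 cells Pdgfc gave log2 0.19 ± 0.24 (edgeR adjusted p = 0.9999), with overlapping groups.

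Pdgfd in Dcn Pi16 cells was at 10.6 and 14.2 CPM in the frail libraries and 20.6, 25.8 and 19.5 CPM in the controls, again without overlap (log2 -0.85 ± 0.23 SE, edgeR adjusted p = 0.420). In Cdh5 cells, where Pdgfd was highest, it gave log2 0.07 ± 0.18 (adjusted p = 0.9998). In Dcn Pi16 cells 3 of 6 members did not overlap between the groups, against 20.5% of all genes. Pdgfc and Pdgfd were lower in the frail libraries, whereas Pdgfb was higher (log2 0.84). Its level in Dcn Pi16 cells was low and rests on 29 to 41 UMIs per library. With no filter on low counts both CUB-domain ligands passed there (Pdgfc at log2 -0.78, edgeR adjusted p = 0.0263, and Pdgfd at log2 -0.86, adjusted p = 0.0468). In that setting 212 of 24144 genes passed, against 0 of 13071 in the main fit.

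Pdgfb in all cells was at 147 and 218 CPM in the frail libraries and 104, 139 and 62.7 CPM in the controls (log2 0.80 ± 0.36 SE, edgeR adjusted p = 0.930). The groups did not overlap. Cdh5 cells made up 21.4% and 27.2% of the frail UMIs and 19.5%, 18.6% and 9.39% of the control UMIs. Within Cdh5 cells Pdgfb was at 453 and 601 CPM against 343, 436 and 338 CPM (log2 0.49 ± 0.23, adjusted p = 0.9998), and in the capillary gate alone, chosen after seeing the data, at log2 0.58 ± 0.23 (adjusted p = 0.9998). Pdgfb at its low level in stroma did not overlap either (8.43 and 9.83 against 3.12, 6.69 and 5.70 CPM in Dcn Smoc2 cells). Pdgfc in Cdh5 cells, on 8 to 18 UMIs per library, was at 0.554 and 0.709 against 1.39, 1.32 and 1.33 CPM (log2 -1.09 ± 0.47, edgeR adjusted p = 0.9998). The non-overlapping members were 2 of 6 in Cdh5 cells against 16.0% of all genes, and 1 of 6 in Dcn Smoc2 cells against 17.5%.

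Pdgfa in all cells was at 96.5 and 56.2 CPM in the frail libraries and 52.3, 47.1 and 61.8 CPM in the controls. Frail 1 stood apart and frail 2 lay within the controls (log2 0.50 ± 0.26 SE, edgeR adjusted p = 0.934). Without frail 1 the difference was log2 0.0031. The same library set the values in Cdh5 cells (log2 1.02 ± 0.55, and -0.34 without frail 1) and in Rgs5 cells (log2 0.62 ± 0.35, and -0.18 without it). In Myh11 cells, where frail 1 was within the range of the controls, Pdgfa gave log2 0.21 ± 0.20. In Sox10 cells it gave log2 0.08 ± 0.32.

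The receptors did not separate the groups where they were high. Pdgfra in Dcn Smoc2 cells gave log2 -0.02 ± 0.19 SE (edgeR adjusted p = 0.999), and in Dcn Pi16 cells 0.54 ± 0.24 (adjusted p = 0.935). Pdgfrb gave log2 0.36 ± 0.32 in Rgs5 cells, 0.28 ± 0.36 in Myh11 cells, 0.45 ± 0.26 in Dcn Smoc2 cells and 0.39 ± 0.25 in Dcn Pi16 cells, with overlap in each. Frail 2 lay above all controls in these 4 gates, whereas frail 1 lay under them in Rgs5 and Myh11 cells and among them in both Dcn gates. Without frail 2 the difference was log2 -0.23 in Rgs5 and -0.48 in Myh11 cells. Pax7 cells were the exception in overlap, with 12 and 14.1 CPM of Pdgfrb in the frail libraries against 15.8, 24.7 and 24.5 CPM (log2 -0.80 ± 0.43, edgeR adjusted p = 0.998), on 5 to 37 UMIs per library. Its direction turned with gate thresholds doubled (log2 0.20) and with mixed cells kept (log2 0.52). The members without overlap were 1 of 3 in Pax7 cells against 18.8% of all genes. They were 0 of 4 in Rgs5 cells against 18.9%, 0 of 6 in Myh11 cells against 17.5% and 0 of 2 in Sox10 cells against 17.5%.

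**Figure D5:**
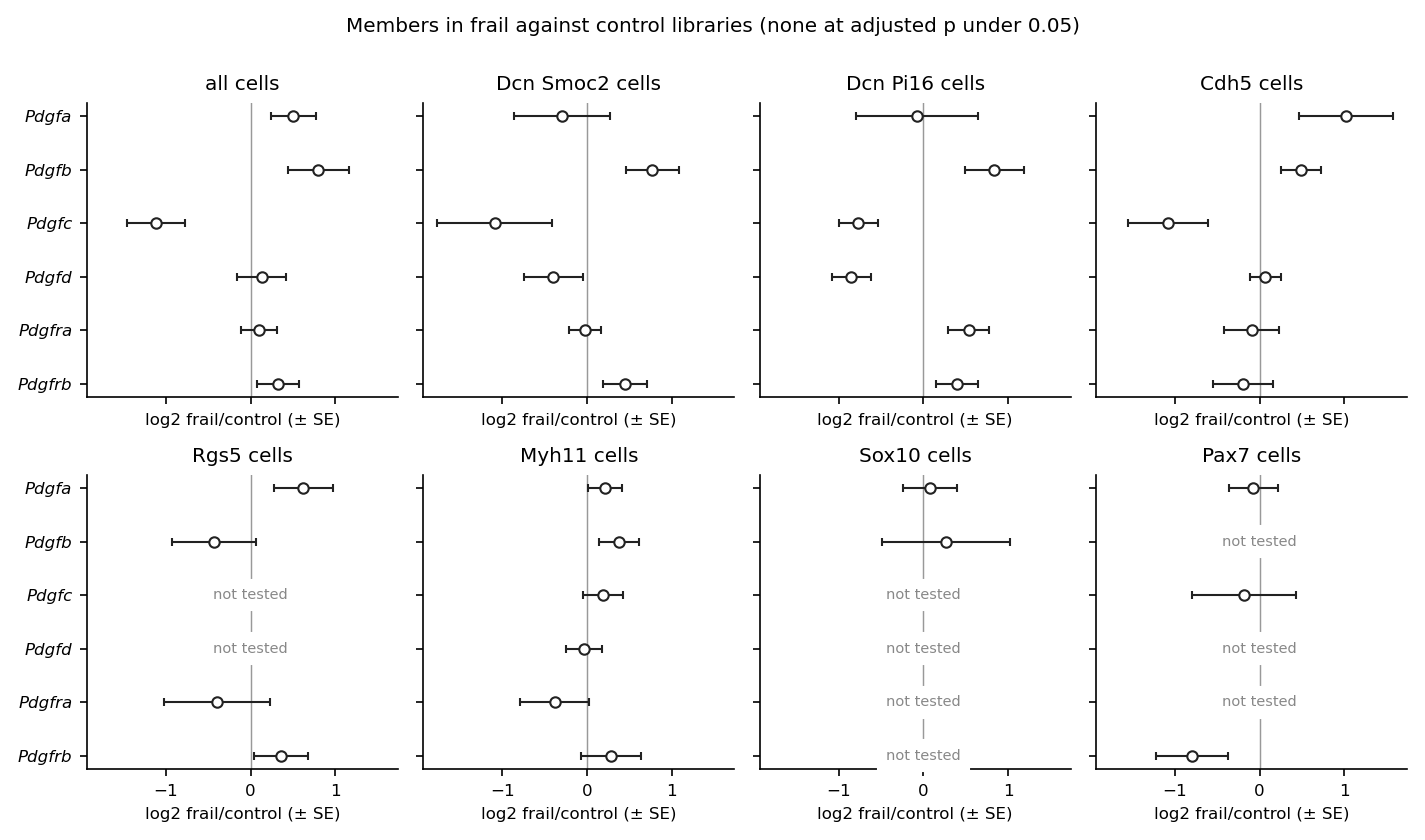
Log2 frail over control (± SE, edgeR) of each member in all cells and in 7 gates; open points did not pass an adjusted p of 0.05, and members under the count filter are marked as not tested. In all cells Pdgfc lies furthest to the left, at -1.12, and Pdgfb furthest to the right, at 0.80.

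None of the genes in the 3 pathway lists passed between frail and control in edgeR, in all cells or in any of the 7 gates. In all cells 11, 18 and 13 genes were measured, with median log2 changes of 0.07, 0.0003 and -0.01 against 0.0018 over all genes. The smallest unadjusted p was that of Plau in Dcn Smoc2 cells (log2 1.14 ± 0.24 SE, edgeR adjusted p = 0.441). Spry1 in Pax7 cells followed (log2 0.93 ± 0.24, adjusted p = 0.301).

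Across 54 sums of gated cells and libraries, the 3 genes most like each member were found by Pearson's r of log2(CPM + 1) among 10776 genes. These sums share libraries and cell types, so r is a description. For Pdgfrb they were Vtn (0.94), Pla2r1 (0.93) and Tbx18 (0.93), of which Vtn was also a listed pericyte marker. For Pdgfra they were Myoc (0.96), Igfbp6 (0.95) and Fbln1 (0.95), and for Pdgfb Tspan13 (0.94), Afap1l1 (0.94) and Slc9a3r2 (0.94). Pdgfd was nearest to Cavin1 (0.92), Rtl8a (0.90) and Sh3bp4 (0.90). Pdgfc was nearest to Il18 (0.85), Daglb (0.82) and Notch2 (0.80), and Pdgfa to Slc35f1 (0.83), Ank3 (0.81) and Ajap1 (0.81).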

How the data were processed

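Raw UMI counts were deposited by the authors, 1 sparse matrix per library, made with bcl2fastq 5.01, Cell Ranger 7.0.0, Seurat 4.1.2 and GRCm38 per the submitters' processing notes. The sources used here do not state the annotation. A barcode was used if it held 200 genes or more and if mitochondrial UMIs made up 10% or less. Gates needed 2 to 10 UMIs of the gate gene (Dcn and Rgs5 also 0.2% of the UMIs, Acta1 5%), and barcodes of more than 1 of 7 lineages were left out, in place of a doublet caller. Summed counts were tested with edgeR 4.0.16 (quasi-likelihood, TMM, filterByExpr, Benjamini-Hochberg at 0.05) in R 4.3.3; DESeq2 1.42.0, Scrublet removal (0.4% per 1000 barcodes), other filters and left-out libraries were alternatives. The test was also run on simulated counts, and its recovery of known changes there is not given here. Thinning drew 2000 UMIs per cell. The named genes are the 6 members, 3 pathway lists and the 3 genes most like each member. The members, lists and gates were chosen with earlier results of these data known. No label says whether libraries came from separate mice or from pools, so p-values measure the spread between these libraries, which may be technical.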

Additional observations from a re-analysis of the deposited data

Results flagged for a closer look

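In the barcodes that the limits on mitochondrial UMIs and gene number removed, which enter no comparison, Pdgfb did not overlap between the groups. It was at 357 and 299 CPM in the removed barcodes of frail 1 and 2, above the 97.9, 147 and 163 CPM of control 1 to 3. The removed barcodes numbered 2050, 1173, 1141, 883 and 1215. The endothelial gene Pecam1 was at 659, 705, 327, 370 and 568 CPM in them, also without overlap, and its part in the Pdgfb difference was not tested.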

How the results depend on the processing

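Between gates, 12 of the 13 member calls kept their direction under every alternative that could test them (Pdgfc in Myh11 cells was under the filter in 1), and 11 of them also stayed past the threshold, although keeping mixed barcodes moved Pdgfa in arterial cells and Pdgfc and Pdgfrb in Myh11 cells by over 1.5 times; the exceptions were Pdgfd in arterial cells and Pdgfd in Myh11 cells, given with their comparisons (log2 -0.50 for the latter with mixed barcodes kept). Pdgfb in Myh11 against Rgs5 cells passed in 4 of 10 alternatives (log2 -1.38 to -0.46 over all of them). Pdgfra passed in 1 of 10 in arterial (log2 -1.11 to -0.48) and in 1 of 10 in venous against capillary cells (log2 -0.64 to 0.13). Pdgfa in Dcn Pi16 against Dcn Smoc2 cells passed in 1 of 10 (log2 -0.37 to 0.04). Between frail and control, no member passed when any 1 library was left out (0 to 0 in all 8 fits). The replicate block gave 1 member in all cells (Pdgfc, log2 -1.29, edgeR adjusted p = 0.0110), where 366 of 19989 genes passed with the block. In Dcn Pi16 cells it gave 2 (Pdgfc, log2 -0.91, adjusted p = 0.00586, and Pdgfd, log2 -0.95, adjusted p = 0.0301), where 219 of 13071 genes passed. The block changed no other member call. With no low-count filter 2 members passed in Dcn Pi16 cells. In the other 6 fits no alternative gave a member. The numbers in the labels mark no shared litter or day, and same-numbered deviations correlated at -0.0134 and 0.166 over 2 pairs, with control 3 alone in its number. Counts of all genes that passed ranged over the alternatives from 0 to 366 (main 0) in all cells, 0 to 157 (1) in Dcn Smoc2, 0 to 219 (0) in Dcn Pi16, 0 to 227 (0) in Cdh5, 0 to 72 (6) in Rgs5, 0 to 129 (20) in Myh11, 0 to 38 (2) in Sox10 and 2 to 81 (7) in Pax7 cells; the highest came from the replicate block in all cells and Dcn Pi16 cells and from no low-count filter in the others. Between gates they were 5079 to 7123 (6565), 2449 to 3986 (3583), 1346 to 2649 (2169) and 3553 to 6701 (5401). The mean share of cells with both receptors was 19.2% thinned and 57.3% unthinned in Dcn Smoc2 cells, and 8.16% and 44.0% in Dcn Pi16 cells. The cause of these shifts was not tested.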
